A study of Glycine max with 12 samples.

Results

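The expression of 2 ferritin cDNA clones, AW186337 and AW279016, out of the 5760 spots of the array, is described here. They were found by their clone identifiers in the platform's probe-to-gene table, which names 253 of the spots. That table assigns AW186337 to LOC547698, a gene that the study's supplementary lists call ferritin, and AW279016 to H-1, whose synonyms in the RefSeq soybean gene table are FERRITIN, SFerH-1, SOF-35 and SOF-5L. The clones were selected on their PEG and TUN ratios in earlier results of these same hybridizations, so those values are given as a description and without a test. Another spot, AW101901, carries the same gene symbol as AW279016, played no part in that choice and is reported next to the pair.

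Ferritin is the iron store of plant cells. Its subunits are encoded in the nucleus, carry a transit peptide and assemble inside plastids into a hollow shell, in which ferrous iron is oxidised and kept as a ferric mineral. Iron held in this way is available for the photosynthetic machinery and for the developing seed, and is kept away from hydrogen peroxide, with which free ferrous iron forms hydroxyl radicals. In soybean the ferritin genes are known to respond to iron supply at the level of transcription.

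The array was hybridized with RNA from trifoliate leaves of young soybean plants (cultivar Dare), taken from shoots that had been cut off and stood in solution. TUN plants received tunicamycin, an inhibitor of N-linked glycosylation, at 10 µg/ml for 24 h and were compared with plants given its solvent, DMSO. AZC plants received the proline analogue L-azetidine-2-carboxylic acid at 50 mM for 16 h, PEG plants received polyethylene glycol at 10% (w/v) for 16 h, and each was compared with plants in water. The labels do not say whether AZC and PEG shared their water plants. Every treatment had 2 biological replicates, each hybridized in both dye orientations against its control, which gave 12 hybridizations. All groups came from detached shoots, TUN ran for longer than AZC and PEG, and the array's clones came from libraries of developing seed.

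Across the arrays, the median spot lay 3.15 to 13.4 times above its local background, depending on the dye and hybridization. The share of spots above background by 2 SD was 96.9% to 100% of spots in all hybridizations except the one of PEG replicate 2 whose PEG RNA was in Cy5, where it was 44.7% in Cy5 and 82.7% in Cy3. That hybridization was also quantified by another method than the other 11. Across spots, the log2 ratios of the biological replicates correlated at r = 0.681 for TUN, 0.874 for AZC and 0.816 for PEG, with Spearman's rho of 0.405, 0.572 and 0.523 in the same order. The scanner files of the dye-swap pair of PEG replicate 1 each followed the authors' ratios of the other orientation and were used exchanged. With the files as listed, the PEG log2 ratios of replicate 1 would change sign. In bulk leaf RNA, fewer cells of a type cannot be told apart from less RNA per cell. Of the leaf markers, both spots were above background in 24 of 24 treated and 24 of 24 control measurements, and of the 16 seed marker spots 186 of 192 treated and 185 of 192 control measurements were above background.

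PEG gave higher ratios on both ferritin clones. AW186337 had log2 PEG over water ratios of 1.89 and 1.05 in replicate 1 and 2.003 and 2.21 in replicate 2, with the treated RNA in Cy5 and then in Cy3. All 4 hybridizations lay above 0, and the lowest of them was a 2.08-fold ratio. The biological replicates were at 1.47 and 2.11, so the mean log2 ratio was 1.79 ± 0.45 (SD, n = 2 biological replicates), a 3.46-fold higher level in PEG than in water. It ranked 34 by log2 ratio among 4345 spots tested under PEG.

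AW279016 had log2 PEG over water ratios of 1.20 and 0.75 in replicate 1 and of 1.25 and 1.99 in replicate 2, in the same order of dyes. Again all 4 were above 0, but in the hybridization with 1.25 neither channel was above background by 2 SD. The replicate means were 0.98 and 1.62, and their mean of 1.30 ± 0.45 (SD, n = 2) corresponded to a 2.46-fold higher level in PEG than in water. Without the reading not above background, the mean was 1.49. Under PEG, 4.58% of all spots tested were called higher and 7.02% were called lower by limma at an adjusted p under 0.05. Both clones were among those called higher, which the way they were chosen had fixed.

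**Figure D1:**
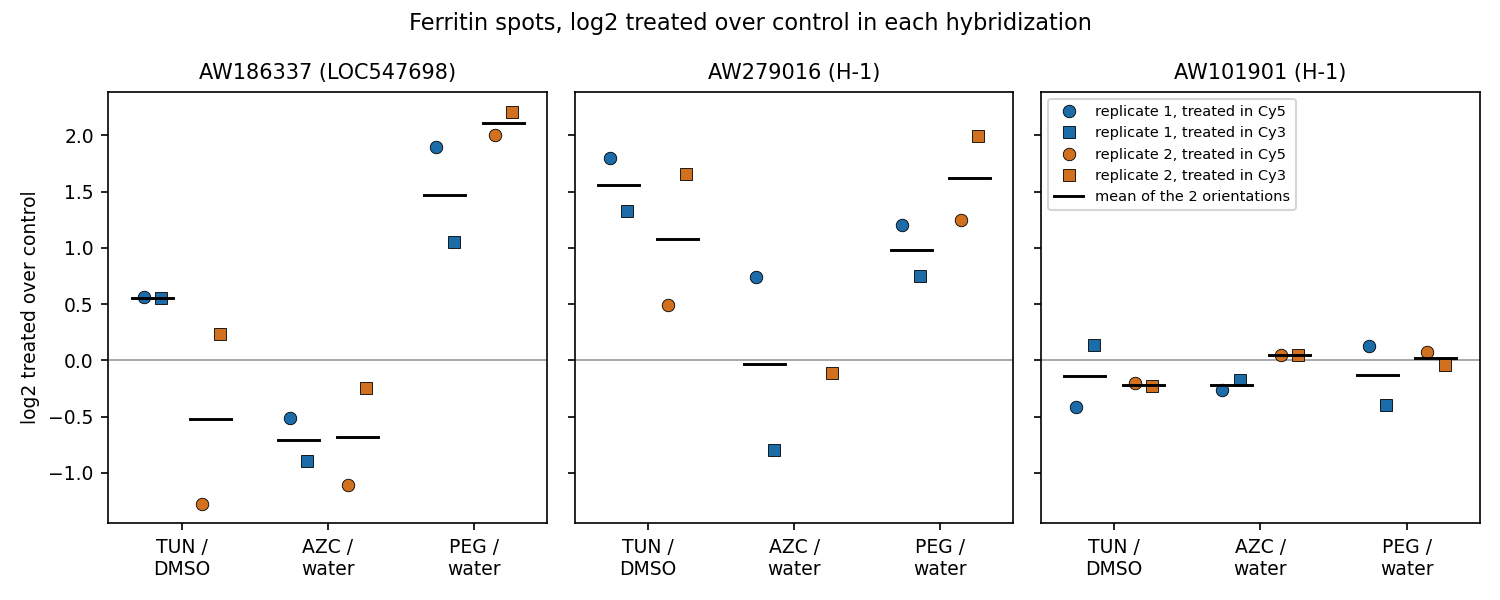
Log2 treated over control (y axis) of AW186337, AW279016 and AW101901 for TUN over DMSO, AZC over water and PEG over water (x axis). Circles have the treated RNA in Cy5, squares in Cy3, colours mark the biological replicate and bars the mean of its 2 orientations; all 4 PEG points of AW186337 (1.05 to 2.21) and of AW279016 (0.75 to 1.99) lie above 0, whereas those of AW101901 lie between -0.40 and 0.13.

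Under TUN, the clones had unlike ratios, which are a description because their TUN values served to choose them. AW279016 had log2 TUN over DMSO ratios of 1.80 and 1.32 in replicate 1 and of 0.49 and 1.66 in replicate 2, all above 0. Its replicate means of 1.56 and 1.08 gave 1.32 ± 0.34 (SD, n = 2), a 2.49-fold higher level in TUN than in DMSO, close in size to its PEG value. The DMSO channel behind the ratio of 1.66 was not above background, and without that reading the mean was 1.02. AW186337 had ratios of 0.56 and 0.55 in TUN replicate 1, and of -1.27 and 0.23 in replicate 2. Its replicates therefore lay on either side of 0, at 0.56 and -0.52, and their mean was 0.02 ± 0.76 (SD, n = 2).

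The AW186337 log2 ratio minus that of AW279016 was between -1.76 and -0.77 in the 4 TUN hybridizations, and between 0.22 and 0.76 in the 4 PEG hybridizations. Both ranges come from values that served to choose the clones and do not test a difference between them. The lowest TUN value of AW186337, from replicate 2 with the treated RNA in Cy5, came from a spot whose local background on the control side was 1.57 times the median of its array, and its part in that value was not tested. Of all spots tested, 4.51% were called higher and 2.75% lower in TUN than in DMSO.

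Under AZC, the log2 ratios of AW186337 lay below 0, whereas those of AW279016 lay on both sides of 0. AW186337 had log2 AZC over water ratios of -0.51 and -0.90 in replicate 1 and of -1.11 and -0.25 in replicate 2, all 4 below 0. The replicate means of -0.70 and -0.68 differed little, and the mean of -0.69 ± 0.02 (SD, n = 2) stood for a 1.61-fold lower level in AZC than in water. The shared spread of the clone over all 3 treatments is wider than that, with an SE of 0.25, and limma gave a 95% interval of -1.26 to -0.12 and an adjusted p of 0.160. The AZC difference thus did not pass the threshold of 0.05. With TUN replicate 1 or TUN replicate 2 left out, the AZC value was the same and its adjusted p was 0.0363.

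AW279016 could not be tested under AZC. Its ratios in replicate 1 were 0.74 and -0.80 in opposite dye orientations, 1.54 log2 units apart, with a mean of -0.03. In replicate 2 it was marked by the scanner software in one orientation and left out there, and the other orientation gave -0.11. Of all spots tested under AZC, 3.98% were called higher and 5.12% lower, and AW186337 was not among them.

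The normalised intensity of each RNA, averaged over the dyes, gives a level for each side of the ratios. Within a replicate, the treated level minus its control level is the log2 ratio itself. The gaps of PEG and TUN from their controls on both clones therefore restate ratios that served to choose them. These log2 levels were adjusted to a common average intensity distribution and are compared only within a spot. On AW186337, the PEG RNA stood at 10.01 and 10.52, apart from all the others, whereas its water controls were at 8.54 and 8.41. TUN overlapped its control, at 8.95 and 8.07 against 8.39 and 8.59 in DMSO. AZC lay below its own control without overlap, at 7.94 and 8.44 against 8.65 and 9.12 in water. By mean level the order was PEG, water of AZC, TUN, DMSO, water of PEG and AZC, and only the step from PEG to the next was wider than the spread between replicates.

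On AW279016, the TUN and PEG RNAs reached about the same level. TUN was at 8.99 and 9.29, against 7.44 and 8.22 in DMSO, and PEG was at 9.16 and 9.12, against 8.19 and 7.50 in water. Neither treatment overlapped its control, and the levels of TUN and PEG overlapped each other. AZC had a single complete replicate, at 7.45 against 7.48 in water, which lay near the lowest of the control values.

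**Figure D2:**
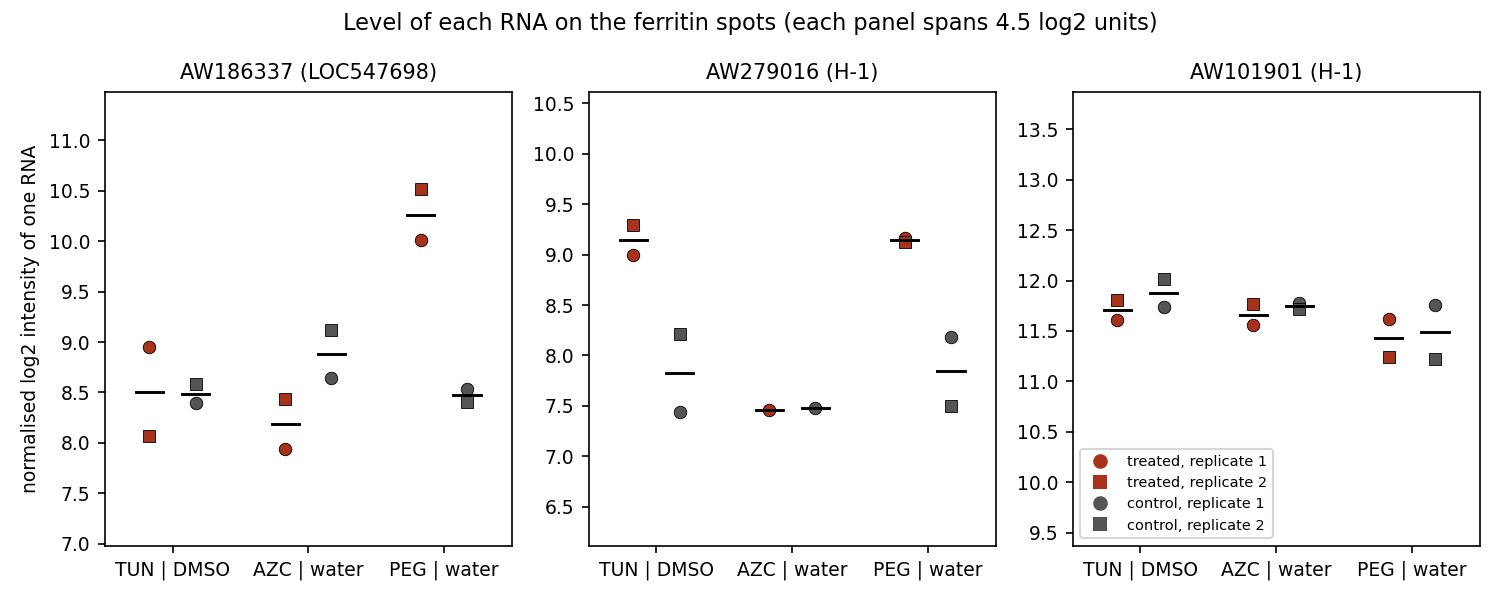
Normalised log2 intensity of each RNA (y axis) on the 3 ferritin spots, with each treated RNA left of its control for TUN, AZC and PEG (x axis). Circles are replicate 1, squares replicate 2 and bars the mean; on AW186337 PEG (10.01 and 10.52) lies above all other RNAs and AZC lies below its own water control, on AW279016 both TUN and PEG lie above their controls, and on AW101901 treated and control levels overlap under all 3 treatments.

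The second spot of the H-1 gene did not follow AW279016. AW101901 had log2 PEG over water ratios of 0.13 and -0.40 in replicate 1 and of 0.08 and -0.04 in replicate 2, with a mean of -0.06 (limma, adjusted p = 0.776, 95% interval -0.27 to 0.16). Under TUN its ratios were -0.41 and 0.13 in replicate 1 and -0.20 and -0.23 in replicate 2, with a mean of -0.18 (adjusted p = 0.419, interval -0.40 to 0.04). Under AZC they were -0.26 and -0.18 in replicate 1 and 0.05 and 0.05 in replicate 2, with a mean of -0.08 (adjusted p = 0.713, interval -0.30 to 0.13). None of the 3 differences passed the test, and no interval reached above 0.16.

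Hybridization by hybridization, the AW279016 ratio exceeded that of AW101901 in 4 of 4 arrays under TUN, by 0.69 to 2.20 on the log2 scale, and in 4 of 4 under PEG, by 1.07 to 2.03. Under AZC it did so in 1 of 3. Since the TUN and PEG values of AW279016 chose it, these differences are a description. The part of the transcript each clone covers is not given in the sources used here, and a cDNA spot can also bind transcripts of related ferritin genes, so which ferritin transcripts each spot measured was not tested.

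The 3 spots differed in how far they rose above the glass. AW186337 lay 2.77 to 14.9 times above its local background (median 4.49) over 24 channel readings, and AW101901 lay 6.64 to 33.8 times above (median 22.2). Both were above background by 2 SD in 24 of 24 readings. AW279016 was the dimmest over its surroundings, at 1.71 to 9.37 times (median 3.14), and passed in 21 of 24. Its readings that did not pass were both channels of the Cy5-labelled PEG hybridization of replicate 2 and the DMSO channel of TUN replicate 2 with the treated RNA in Cy3. In that TUN hybridization the local background was 4.66 times the array median on the treated side and 4.54 times on the control side. No pixel of the 3 spots was saturated. When all of a treatment's readings had to pass, AW279016 had no value under TUN or PEG.

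**Figure D3:**
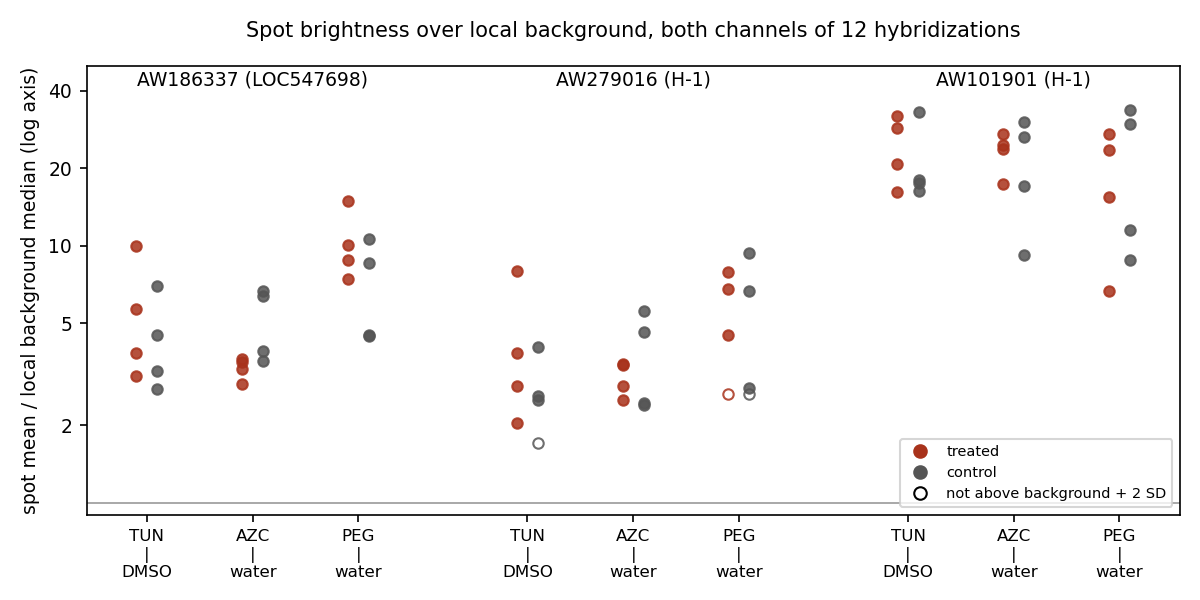
Mean spot intensity divided by the local background median (y axis, log scale) for the 3 ferritin spots, with the treated RNA left of its control under each treatment. Each point is 1 channel of 1 hybridization and open points are not above background by 2 SD; AW279016 holds all 3 open points and AW101901 lies 6.64 to 33.8 times above background.

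The ratios rest on the dye normalisation as well as on the signal. In PEG replicate 1, where Cy5 labelled the PEG RNA in this orientation, AW186337 had a foreground of 791 in the PEG channel over a background of 90, and of 1525 in the water channel over a background of 178. AW101901 on the same array had 1903 over 81 in the PEG channel and 7743 over 229 in the water channel. The Cy3 channel was thus the brighter for both spots, and after loess normalisation against all spots the log2 ratios were 1.89 for AW186337 and 0.13 for AW101901. The log2 ratios deposited by the authors, which were normalised separately, were above 0 in 4 of 4 PEG hybridizations for both clones. Over those 4, they averaged 1.48 ± 0.48 for AW186337 and 1.03 ± 0.42 for AW279016 (SD, n = 4 hybridizations of 2 biological replicates). Under TUN the deposited ratios of AW279016 averaged 0.93 ± 0.45 and those of AW186337 -0.05 ± 0.62, and under AZC those of AW186337 averaged -0.39 ± 0.23, on the same count of hybridizations. Without any background correction the log2 ratios were 1.22 for AW186337 under PEG, and 0.63 under TUN and 0.74 under PEG for AW279016.

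**Figure D4:**
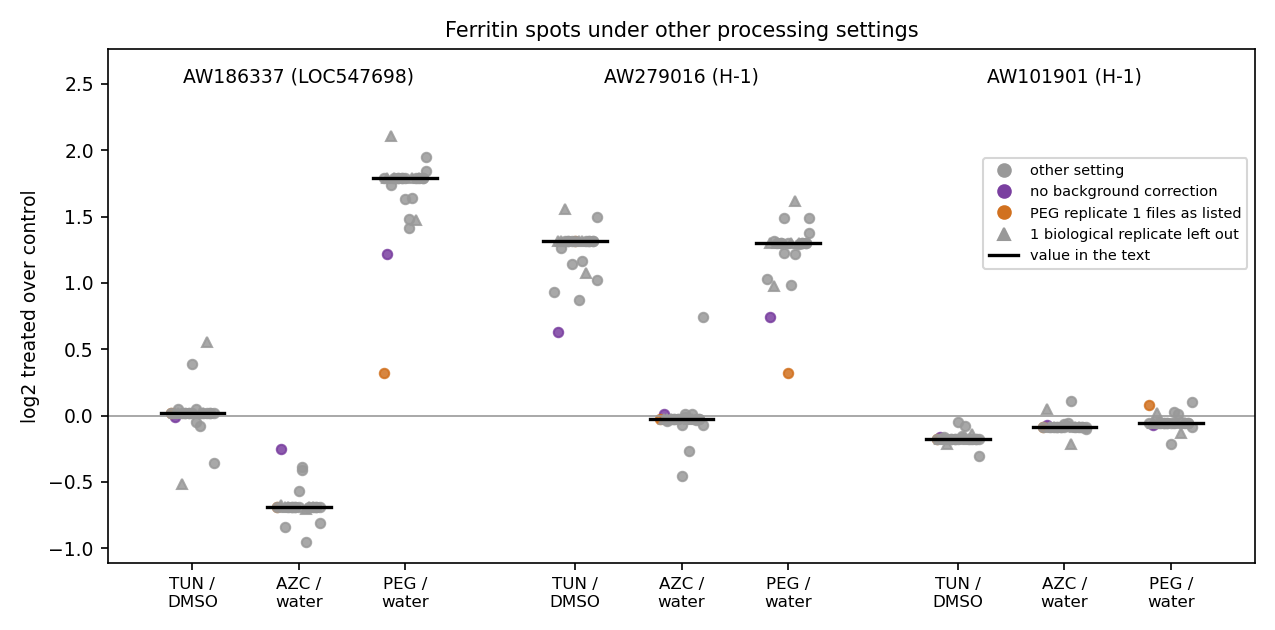
Log2 treated over control (y axis) of the 3 ferritin spots for each treatment (x axis) as given in the text (bars) and under other processing settings (circles) or with 1 biological replicate left out (triangles). The PEG values of AW186337 and AW279016 stay above 0 throughout and are lowest, at 0.32 for each, with the PEG replicate 1 files as listed. With those files as listed, replicate 1 lies below 0 and replicate 2 above 0 for both clones.

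Among the other spots with a gene name and a test in all 3 treatments, those most like each clone were found by the root mean square difference of their biological-replicate log2 ratios. For AW186337, over 6 values and 158 candidate spots, the nearest were both spots of ALDH7B1, an aldehyde dehydrogenase, AW508769 with a difference of 0.49 and AW598015 with 0.61, followed by AW568104 (LOC548084) with 0.64. These 3 spots had PEG log2 ratios of 1.22, 1.05 and 1.33 in the same order. Picked as nearest to a clone chosen on its PEG ratio, they do not test a shared response. For AW279016, over the 5 values it had and 159 candidates, the nearest was AW397276, the glutathione S-transferase GSTU41, with a difference of 0.39. It was followed by the ALDH7B1 spot AW508769 with 0.59 and by AW457909, the transcription factor NAC3, with 0.73. Under AZC, NAC3 had a mean log2 ratio of 1.49, against -0.03 for AW279016, whose AZC values entered the difference through replicate 1 only. The other ferritin spots were farther off: AW186337 ranked 16 for AW279016, and AW101901 ranked 98 for AW279016 and 69 for AW186337.

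GSTU41 shared the higher levels under TUN and PEG, and was also higher under AZC. It was picked as the spot nearest to AW279016, a clone chosen on its TUN and PEG ratios. The adjusted p values of GSTU41 therefore do not test a shared response. Its log2 ratios were 1.50 and 1.55 in the TUN replicates (2.88-fold over DMSO, limma adjusted p = 0.000127), 0.50 and 0.84 in the AZC replicates (1.59-fold over water, adjusted p = 0.00835, but 0.0503 without AZC replicate 1 and 0.261 without replicate 2) and 1.27 and 1.20 in the PEG replicates (2.35-fold over water, adjusted p = 0.000208). The paper's own array results list AW397276 among the genes induced by TUN, AZC and PEG alike. In its real-time RT-PCR, glutathione S-transferase mRNAs, among them that of AW397276, were not induced by tunicamycin. The RT-PCR leaves were of another cultivar and were fed through the petiole. The paper's text describes that time course up to 16 h, whereas TUN ran for 24 h on the array. Glutathione S-transferases join glutathione to reactive compounds, and the tau class to which GSTU41 belongs is particular to plants.

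The antioxidant enzymes and metallothioneins named on the array, 16 spots in all, had few calls, in both directions. Of 13 tested under TUN, 1 was higher (GSTU41) and none was lower, beside 4.51% higher and 2.75% lower among all spots tested, and the median log2 ratio was -0.07, against -0.01 for all spots tested. Under AZC, 1 of 13 was higher and 3 were lower, beside 3.98% and 5.12% of all spots, and the median was 0.04, against 0.01 for all spots. Those lower were SODB, an iron superoxide dismutase, at -1.80 and -0.87 in the replicates (adjusted p = 0.00342), AW509423, 1 of 2 spots of the dehydroascorbate reductase DHAR3, at -0.77 and -0.97 (adjusted p = 0.00916), and the glutathione S-transferase GSTF5 at -0.68 and -0.76 (adjusted p = 0.01). The other DHAR3 spot, AW186212, had a mean log2 AZC ratio of -0.17 and an adjusted p of 0.662. No antioxidant spot was called under AZC without AZC replicate 1 (the adjusted p of these 3 was then 0.113 to 0.155), and SODB was the only one called without replicate 2.

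Under PEG, 2 of 13 were higher, GSTU41 and the glutathione S-transferase GSTa, and 1 was lower, the glutathione S-transferase spot AW471665, beside 4.58% higher and 7.02% lower among all spots. GSTa stood at 0.996 and 1.71 in the PEG replicates (2.56-fold, adjusted p = 0.00363), and AW471665 at -0.36 and -0.45 (adjusted p = 0.0123). GSTa was at 0.65 with the PEG RNA in Cy5 only (limma adjusted p = 0.153) and at 2.06 with it in Cy3 only. GSTa could not be tested under the stricter filter. The list's median was -0.08, against 0.01 for all spots tested. SODB had a PEG log2 ratio of -0.75 and did not pass (adjusted p = 0.054; 0.0342 with either AZC replicate left out and 0.0203 with either TUN replicate left out). Without PEG replicate 2, the adjusted p was 0.136 for GSTa and 0.177 for AW471665.

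**Figure D5:**
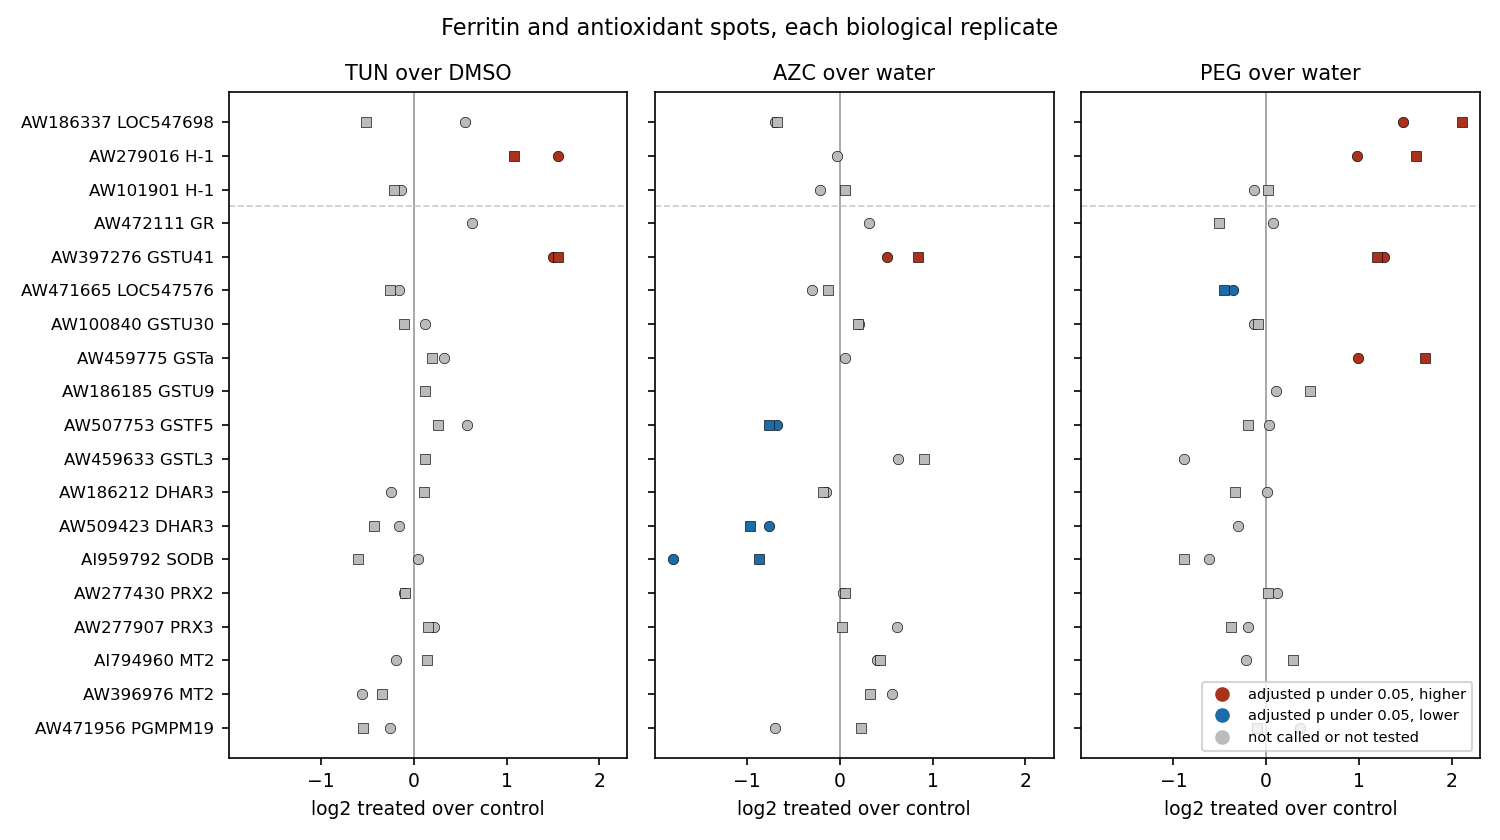
Log2 treated over control (x axis) of the 3 ferritin spots (above the dashed line) and of the 16 antioxidant spots (below it), 1 panel per treatment. Circles are replicate 1, squares replicate 2, red and blue mark spots called higher or lower by limma at an adjusted p under 0.05, and GSTU41 is the only antioxidant spot in red under all 3 treatments.

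Of the leaf markers, the chlorophyll a/b-binding spot AW472492 was lower under all 3, with mean log2 ratios of -3.58 for TUN, -5.35 for AZC and -5.24 for PEG (adjusted p = 0.00509, 0.000267 and 0.000372). Its TUN replicates were far apart, at -1.97 and -5.20, so that the value was -5.20 without TUN replicate 1 and -1.97 without TUN replicate 2, and the TUN call was lost in a separate fit (adjusted p = 0.0616). The photosystem I spot passed in no treatment in which it was tested. Of the seed markers tested, none of 14 was called under TUN, 1 of 12 was higher under AZC, and under PEG 5 of 12 were higher and 1 was lower. Those higher under PEG were all seed maturation protein spots (PM12, PM30, PM34, PM29 and PM41), and the lower one was a GY4 spot. The other spots tested under PEG, of PM37, PM39, PM40, GY4, GY3 and KTI3, were not called. PM30 served the paper as a drought-induced control in its real-time RT-PCR. Among all spots, 4.51% were higher and 2.75% lower under TUN, 3.98% and 5.12% under AZC, and 4.58% and 7.02% under PEG. The part of these changes in the ferritin values was not tested.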

How the data were processed

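Leaf RNA of treated and control soybean plants was hybridized together on 2-colour cDNA arrays. The authors scanned them and deposited, per spot, the foreground and local background intensity in Cy3 and Cy5 and the percent of saturated pixels (file headers: ScanArray Express 2.00). They also deposited log2 ratios of treated over control, background-subtracted and LOWESS-normalised. What the scanner software's marks stand for is not given in the sources used here. No array-specific genome build was used and no coordinates are given.

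From the intensities, the background was corrected by normexp (offset 50), each array was normalised by loess, spots with mark 1 or 4 were left out, ratios were turned to treated over control by the labelled dye, and the dye-swap pair was averaged, both orientations being required. All 5760 spots met the dim filter (above background by 2 SD on at least 3 of 4 hybridizations in 1 of 6 RNA groups). For PEG replicate 1, the scanner files correlated at -0.499 and -0.482 with their own deposited columns and at least 0.977 in size with each other's, against 0.953 to 0.983 for the other 10 files with their own. With the files exchanged, all 6 hybridizations with the treated RNA in Cy3 were quantified on 1 day, which held none of the others, so day and orientation cannot be told apart. limma 3.58.1 (R 4.3.3) was fitted to 6 biological-replicate values per spot, with a coefficient for each treatment, a variance trend on intensity and Benjamini-Hochberg adjustment over all spots tested (4905 for TUN, 5023 for AZC, 4345 for PEG). The fit was run on simulated data with changes in PEG only and independent noise in each hybridization. That noise held no variation shared within a biological replicate, so the run cannot check the error rate for such variation. With 2 biological replicates per treatment, the number of arrays limits the precision. Figures were drawn with matplotlib 3.10.9.

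The clones and gene lists were chosen with earlier results of these data known. Named genes were the ferritin clones, the 3 named spots nearest to each, and listed iron or antioxidant spots that passed a test; AW101901, the marker spots and those that did not pass were added after their values were seen. Gene names came from the platform table, of whose 253 spots 249 had a gene in the RefSeq table. Alternatives covered background correction, normalisation, marks, filters, the trend, single orientations, the deposited ratios, a replicate block and each replicate left out.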

Additional observations from a re-analysis of the deposited data

Results flagged for a closer look

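The ferritin clone AW186337 moved in opposite directions under PEG and AZC. All 4 PEG hybridizations lay above 0 and all 4 AZC hybridizations below 0, and the mean PEG log2 ratio exceeded the mean AZC log2 ratio by 2.48. The difference between the treatments was not tested, since the PEG value had served to choose the clone, and AZC by itself did not pass the test (limma, adjusted p = 0.160). In the 8 sets of 4 hybridizations of the ferritin spots, Dixon's ratio set no value apart from the other 3. Sets of 4 are too small for this to show that no reading deviated. For AW186337 under TUN, 1 reading was -1.27 and the other 3 were 0.23 to 0.56.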

How the results depend on the processing

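The sign of the mean AW279016 ratio under TUN, and of both clones' mean ratios under PEG, held under every alternative that gave a value. The stricter filter gave none for AW279016 under TUN and PEG. Alternatives that changed only the variance model, the test or the filter left the other ratios as they were, so they could not move a sign. Sizes moved more. Without background correction the log2 ratios were 0.63 (TUN) and 0.74 (PEG) for AW279016 and 1.22 (PEG) for AW186337, and AW279016 under TUN was 0.87 with plain subtraction and 0.93 in the deposited ratios. With the PEG replicate 1 files as listed, both clones stood at 0.32 under PEG, as means of a replicate 1 below 0 and a replicate 2 above 0. In that setting GSTU41 (AW397276) turned to -0.0349, and 19 spots were called for TUN, 65 for AZC and 0 for PEG (limma). With the treated RNA in Cy5 only, AW471665 turned to 0.0671 under PEG. AW186337 under AZC passed at -0.96 with median centring (adjusted p = 0.0281), at -0.69 in separate fits per treatment (adjusted p = 0.0231) and at -0.69 in the methods' t-test unadjusted; its adjusted p over the alternatives ran from 0.0231 to 0.806. With a replicate left out its value ran from -0.703 to -0.6765, a lone replicate being assumed to vary like the other groups. AW101901 passed in no treatment under any alternative. The listed-files setting also took every antioxidant call under all 3 treatments.

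Spots called, 356 for TUN, 457 for AZC and 504 for PEG in the fit of the text, also changed with other settings. For TUN they were 193 in separate fits, 233 with the treated RNA in Cy3 only, 708 by the methods' t-test unadjusted and 1 after Benjamini-Hochberg. For AZC they were 1328 with median centring, 245 with the treated RNA in Cy5 only, and 965 and 142 by the methods' t-test before and after adjustment. For PEG they were 311 with the stricter filter and 6 by the adjusted t-test, and the deposited ratios split them into 262 higher and 263 lower, against 199 and 305. After the data had been seen, a fit that left out the deviating PEG replicate 2 array (210 for TUN, 271 for AZC), one that accepted a single orientation and one that kept only readings with both channels above background were added. With a replicate left out they ran from 219 (without TUN replicate 1) to 431 for TUN, from 190 (without AZC replicate 1; 273 without replicate 2) to 539 for AZC, and from 179 (without PEG replicate 2) to 578 for PEG.

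The labels do not say whether same-numbered replicates shared a batch. Their deviations correlated at 0.14 (TUN and AZC), -0.0561 (TUN and PEG) and -0.0728 (AZC and PEG). With the number as a replicate block, 382 spots were called for TUN, 449 for AZC and 488 for PEG. No call of a gene named in the text changed.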
